A study of Mus musculus with 109 samples.

Results

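The genes described here are 9 genes of antigen presentation by major histocompatibility complex (MHC) class II, of the 37315 genes in the count table. They were chosen by symbol and read from the table by the matching Ensembl identifiers, and all 9 were found. Ciita encodes the transactivator that switches class II genes on. H2-Aa and H2-Ab1 encode the alpha and beta chain of the I-A molecule, H2-Eb1 encodes the beta chain of I-E, and Cd74 encodes the invariant chain that holds the peptide groove until a peptide is loaded. H2-DMa and H2-DMb1 encode the chains of H2-DM, which exchanges the last fragment of the invariant chain for a peptide. Ctss encodes cathepsin S, a lysosomal protease that trims the invariant chain, and Cd86 encodes a costimulatory ligand of T cells.

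Class II molecules present peptides of engulfed protein to CD4+ T cells and are found mainly on dendritic cells, B cells, macrophages and activated microglia. CIITA does not bind DNA itself but is recruited by RFX, CREB and NF-Y proteins that sit together on the promoters of class II genes, Cd74 and H2-DM. In many cells Ciita is itself induced by interferon gamma, with IRF1 among the factors that act on it, and a healthy retina holds few class II positive cells.

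Whole retinas of 64 mice were profiled by RNA sequencing, 1 retina per library, with both eyes taken from 45 of the mice. IL1A and TNF are cytokines released by activated microglia, and the study injected them into the vitreous to ask what each does to the retina, and whether the loss of Sarm1, an NADase that drives axon degeneration, changes the response. All mice were on C57BL/6J or Sarm1 deficient stock and were 2 to 6 months old, with both sexes in every group. Every control eye had received PBS, often as the fellow eye of a cytokine-injected one.

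In batch 1, all mice were WT. At day 2 this batch held 31 PBS, 8 TNF, 9 IL1A and 10 IL1A+TNF retinas. At day 14 it held 7 PBS retinas of 6 mice, so that 2 of them are the eyes of 1 mouse, and 6 TNF retinas. At day 35 it held 6 PBS and 9 TNF retinas. Days were taken from the time label of each sample, while the protocol text shared by all samples names only day 2 for the harvest. Batch 2 was taken at day 2 and held 5 WT PBS, 6 WT IL1A+TNF, 6 Sarm1KO PBS and 6 Sarm1KO IL1A+TNF retinas. Sarm1KO mice came from a stock deficient in Sarm1, and none of the retinas with TNF alone or IL1A alone was Sarm1KO. The submitters' batch number is the only batch label.

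Total counts ranged from 30014757 to 79064488 per retina, with a median of 39374202. Retinal markers were high in every group. Sag, the arrestin of rod photoreceptors, was at 2733 to 5741 and Rlbp1, a retinoid binding protein of Müller glia and pigment epithelium, at 70.54 to 351.2 CPM, the count divided by the TMM-scaled library size and put on the usual common scale, while lens crystallins ranged from 0.07396 to 4513 CPM between retinas. One mouse went against its labels. In 8 of the 9 genes its eye labelled TNF (replicate 6) lay below every PBS retina of day 2, with Cd74 at 0.898 CPM. Its eye labelled PBS (replicate 17) was the highest of the 31 PBS retinas for Cd74, at 56.1 CPM, and for H2-Aa, H2-Ab1, H2-Eb1, Ctss and Cd86. Member and list calls that changed when both its retinas were left out are given both ways, an alternative that was added after its values were seen. Figures include both retinas.

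RefSeq promoters (GRCm38.p6, from 250 bases before the start to 50 bases after it) were matched for 5 of the 9 genes, namely H2-Aa, H2-Eb1, H2-DMa, H2-DMb1 and Ctss. Ciita, Cd74, H2-Ab1 and Cd86 had no entry. They are shown because CIITA acts through short motifs at a fixed distance, called X and Y boxes. On both strands, 3 strings were searched: AACNGATG (part of the X1 box bound by RFX), TGACG (the core of the X2 box bound by CREB) and ATTGG (the Y box bound by NF-Y). The 60 bases around them are given for 3 members and for the 2 close copies, with the matched letters in capitals, and TGACGTCA of H2-Aa in capitals as a whole because it holds TGACG on both strands.
H2-Aa (chr17:34287857-34287916, minus strand): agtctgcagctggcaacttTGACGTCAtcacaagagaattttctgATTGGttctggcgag
H2-Eb1 (chr17:34305763-34305822, plus strand): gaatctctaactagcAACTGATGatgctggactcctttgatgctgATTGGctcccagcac
H2-Eb2 (chr17:34325530-34325589, plus strand): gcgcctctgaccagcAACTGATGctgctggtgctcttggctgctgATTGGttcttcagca
H2-DMb1 (chr17:34153085-34153144, plus strand): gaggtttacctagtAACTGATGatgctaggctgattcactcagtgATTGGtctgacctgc
H2-DMb2 (chr17:34145114-34145173, plus strand): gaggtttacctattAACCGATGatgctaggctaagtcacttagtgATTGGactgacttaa

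AACNGATG began 89 bases before the start in H2-Eb1 and 92 in H2-DMb1, with ATTGG following 30 and 31 bases further on. Starts are those of the RefSeq promoters, which are not always the ends of the GENCODE genes given below. The H2-DMb1 stretch and the H2-DMa promoters lie inside those GENCODE genes. In H2-Aa there was no AACNGATG, TGACG began 74 bases before the start and ATTGG 48. Ctss held AACNGATG at 207 bases before its start with no ATTGG, and in H2-DMa only the second of its promoters held a match, ATTGG at 198 bases. Among all 32851 promoters of this length, 1.98% held AACNGATG, 17.8% TGACG and 33.8% ATTGG, and 0.688% held the first and the last together. AACNGATG followed by ATTGG at 30 to 31 bases was found in 5 promoters (0.0152%), those of H2-Eb1, H2-Eb2, H2-DMb1, H2-DMb2 and BC051142. That spacing was chosen after these sequences were seen, and a match describes letters only.

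Per the GENCODE M21 annotation of GRCm38, 5 of the 9 genes lie in the class II region of chromosome 17. H2-DMa (ENSMUSG00000037649, plus strand) lies at chr17:34119541-34139101, H2-DMb1 (ENSMUSG00000079547, plus) at chr17:34153072-34160230 and H2-Ab1 (ENSMUSG00000073421, plus) at chr17:34257689-34269419. H2-Aa (ENSMUSG00000036594, minus) lies at chr17:34282744-34287823 and H2-Eb1 (ENSMUSG00000060586, plus) at chr17:34305867-34316674. Ciita (ENSMUSG00000022504, plus) lies at chr16:10480059-10528418 and Cd86 (ENSMUSG00000022901, minus) at chr16:36603869-36666081. Cd74 (ENSMUSG00000024610, plus) lies at chr18:60803848-60812652 and Ctss (ENSMUSG00000038642, plus) at chr3:95526786-95556403. Values were counted over exons. Of the 9535 exonic bases of Ciita, 3.45% overlap Dexi on the other strand, and 10.4% of those of H2-DMa overlap Brd2 on the other strand. The sources used here do not say whether strand was used in counting, so reads there cannot be assigned. H2-DMb1 and H2-Eb1 have close copies next to them, H2-DMb2 and H2-Eb2, and counts between such copies are uncertain.

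In PBS retinas of day 2, batch 1, Ctss was the most abundant of the genes per length and Ciita and Cd86 the least. Median levels, in CPM per kilobase of exon, were 19.6 for Ctss and 6.39 for Cd74. The 3 chains followed, with 1.89 for H2-Eb1, 1.70 for H2-Ab1 and 1.15 for H2-Aa. H2-DMa was at 1.01, H2-DMb1 at 0.805, Ciita at 0.314 and Cd86 at 0.242. The spread between retinas differed between genes: Ciita ran from 1.71 to 4.32 CPM in the 31 retinas, while Cd74 ran from 2.98 to 56.1 CPM. Ranges of the 3 chains overlapped one another at any of these levels, as did those of Ciita and Cd86 per kilobase.

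IL1A+TNF raised all 9 genes at day 2 in WT retinas. Class II chains and Cd74 rose 5.71- to 6.51-fold, while Ciita rose 1.83-fold. All 9 passed the test (limma, FDR under 0.05), where 24.9% of 19548 genes tested were called higher. The median log2 change of the members was 1.70, against -0.023 over all genes. In whole retina, a gain of cells that carry a transcript and a gain of transcript per cell cannot be told apart.

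Ciita, the transactivator, was at 1.71 CPM at the lowest, 3.0 at the median and 4.32 at the highest in the 31 PBS retinas, and at 4.77, 5.32 and 7.03 CPM in the 10 IL1A+TNF retinas. The groups did not overlap. The log2 change was 0.88 (SE 0.12, FDR 9.52e-09). Cd74, the invariant chain, was at 2.98, 10.7 and 56.1 CPM with PBS and at 30.3, 68.7 and 86.4 CPM with IL1A+TNF. Here 7 of the 10 treated retinas lay above every PBS retina, and the log2 change was 2.51 (SE 0.384, FDR 1.38e-07).

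Transcripts of H2-Aa, H2-Ab1 and H2-Eb1 rose with Cd74. H2-Ea was not found by symbol in the table, only H2-Ea-ps, and whether I-E molecules are made was not tested. H2-Aa was at 0.995, 4.38 and 28.2 CPM with PBS and at 15.1, 34.0 and 48.9 CPM with IL1A+TNF, a log2 change of 2.7 (SE 0.411). H2-Ab1 ran from 1.27 to 21.4 CPM around a median of 4.36 with PBS and from 13 to 35.1 CPM around 28.2 with IL1A+TNF (log2 2.53). H2-Eb1 ran from 0.995 to 22.1 CPM around 3.68 with PBS and from 13 to 38.0 CPM around 29.8 with IL1A+TNF (log2 2.66). For each chain, 7 or 8 of the 10 treated retinas lay above every PBS retina.

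The genes of peptide exchange changed less. H2-DMa was at 2.09, 3.49 and 4.93 CPM with PBS and at 5.36, 6.16 and 7.55 CPM with IL1A+TNF, with no overlap and a log2 change of 0.87 (SE 0.116). H2-DMb1 went from a median of 1.35 CPM (0.640 to 2.32) to 3.61 CPM (2.41 to 4.09), also with no overlap (log2 1.39, SE 0.259). Ctss, the protease, had the smallest FDR of the 9, 7.42e-13. It was at 14.9, 26.6 and 52.1 CPM with PBS and at 66.8, 87.5 and 115.7 CPM with IL1A+TNF, again with no overlap (log2 1.70, SE 0.168). Cd86, the costimulatory ligand, went from 0.884 CPM (0.491 to 1.73) to 1.63 CPM (1.17 to 2.45), and 4 of the 10 treated retinas lay above every PBS retina (log2 0.94, SE 0.158).

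**Figure D1:**
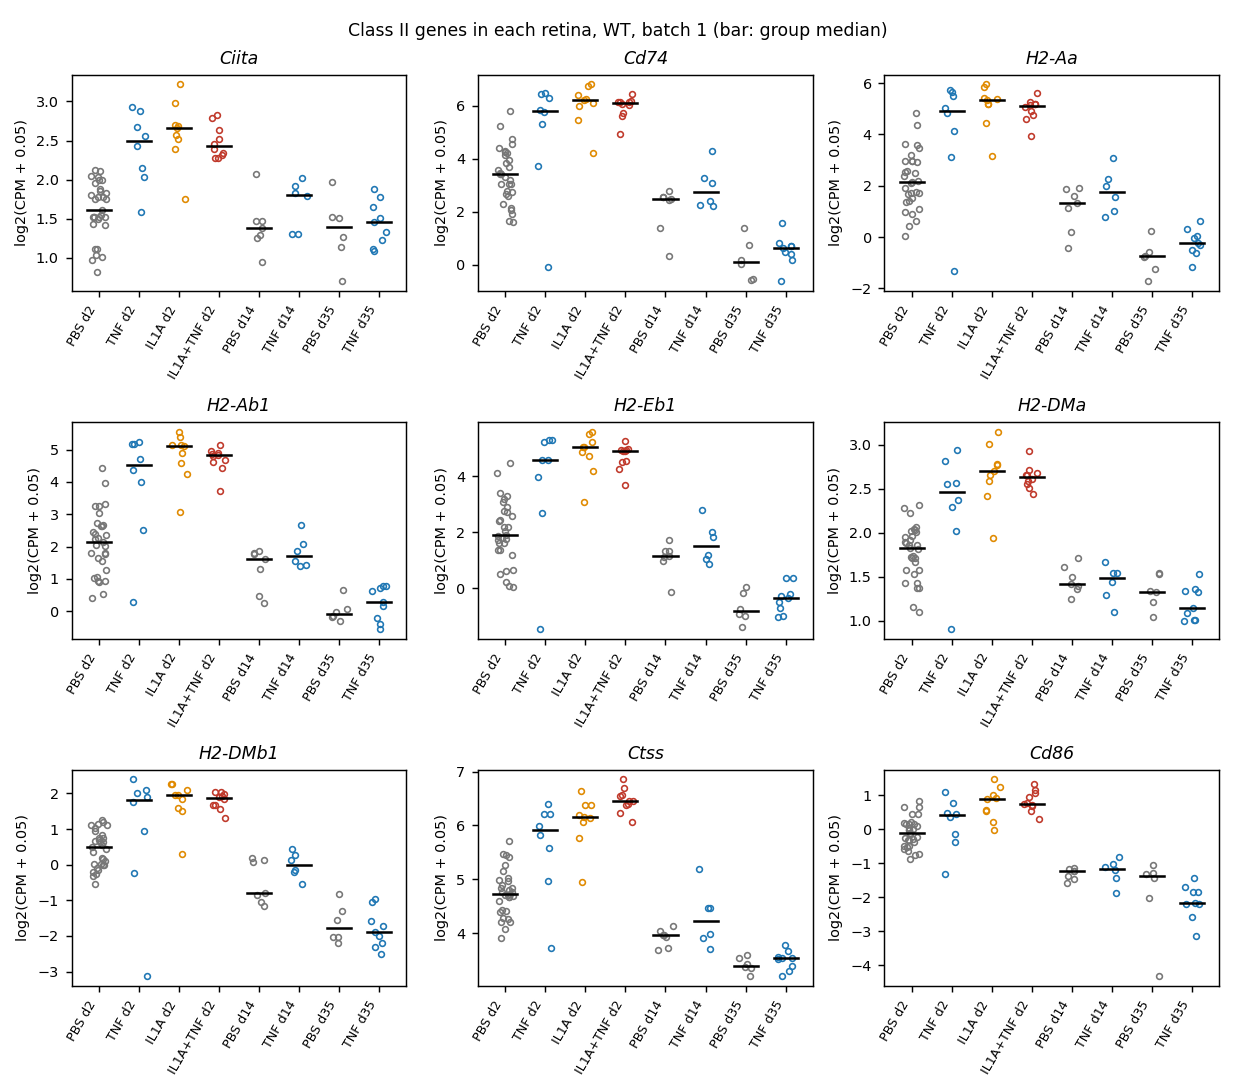
Each panel plots 1 gene in every WT retina of batch 1 as log2(CPM + 0.05), with the treatment and day (d) on the horizontal axis and a bar at the group median. For Ciita, H2-DMa, H2-DMb1 and Ctss all 10 IL1A+TNF retinas of day 2 sit above all 31 PBS retinas, and 1 TNF retina of day 2 sits far below the other 7 for Cd74 and the chains.

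IL1A alone raised all 9 genes as well, where 12% of genes were called higher. Ciita was at 3.32, 6.25 and 9.26 CPM in the 9 IL1A retinas, and 8 of them lay above every PBS retina (log2 1.04, SE 0.123, FDR 1.07e-09). Cd74 was at 18.5, 73.3 and 111.8 CPM (log2 2.62), and 7 of 9 lay above every PBS retina. Log2 changes of the chains were 2.89 for H2-Aa, 2.69 for H2-Ab1 and 2.82 for H2-Eb1. Those of H2-DMa, H2-DMb1, Ctss and Cd86 were 0.91, 1.35, 1.34 and 0.91. The comparisons of IL1A+TNF, IL1A and TNF share the 31 PBS retinas, so their changes are not independent of one another.

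TNF alone raised 6 of the 9 genes, where 0.614% of genes were called higher. Ciita was at 2.95, 5.60 and 7.57 CPM in the 8 TNF retinas, 6 of them above every PBS retina, with a log2 change of 0.82 (SE 0.135, FDR 0.00174). The other genes called were H2-Aa (log2 1.89, FDR 0.0367), H2-Ab1 (1.84, FDR 0.00593), H2-Eb1 (1.81, FDR 0.0392), H2-DMa (0.55, FDR 0.0328) and Ctss (0.87, FDR 0.0091). Cd74 had a log2 change of 1.59 (SE 0.436, FDR 0.0709), H2-DMb1 of 0.57 (FDR 0.737) and Cd86 of 0.30 (FDR 0.802). The spread of the TNF group was wide. Cd74 was at 0.898, 55.6 and 88.2 CPM, Ctss at 13.2, 60.3 and 84.0 CPM and H2-DMb1 at 0.0641, 3.50 and 5.21 CPM, and each lowest value belonged to the retina labelled TNF replicate 6.

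Without both retinas of that mouse, 8 of the 9 genes were called with TNF, where 2.16% of genes were called higher. Cd74 then had a log2 change of 2.41 (FDR 4.14e-08), H2-Aa of 2.78, H2-Ab1 of 2.48 and H2-Eb1 of 2.66. Ciita was at 0.94 (FDR 7.26e-07), H2-DMa at 0.76, H2-DMb1 at 1.20 and Ctss at 1.18, while Cd86 had 0.55 (FDR 0.107). The other 7 TNF retinas held 4.04 to 7.57 CPM of Ciita and 13 to 88.2 CPM of Cd74, and the highest remaining PBS value of Cd74 was 38.0 CPM. Calls with TNF also rested on single libraries in the other direction. Only 1 gene was called when TNF replicate 5 or 7 was left out, 2 without TNF replicate 2, and 3 without TNF replicate 1, 4 or 8 or PBS replicate 1, 2, 4, 12, 16, 18 or 28. With mouse as a fixed block, 5 genes were called with TNF.

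**Figure D2:**
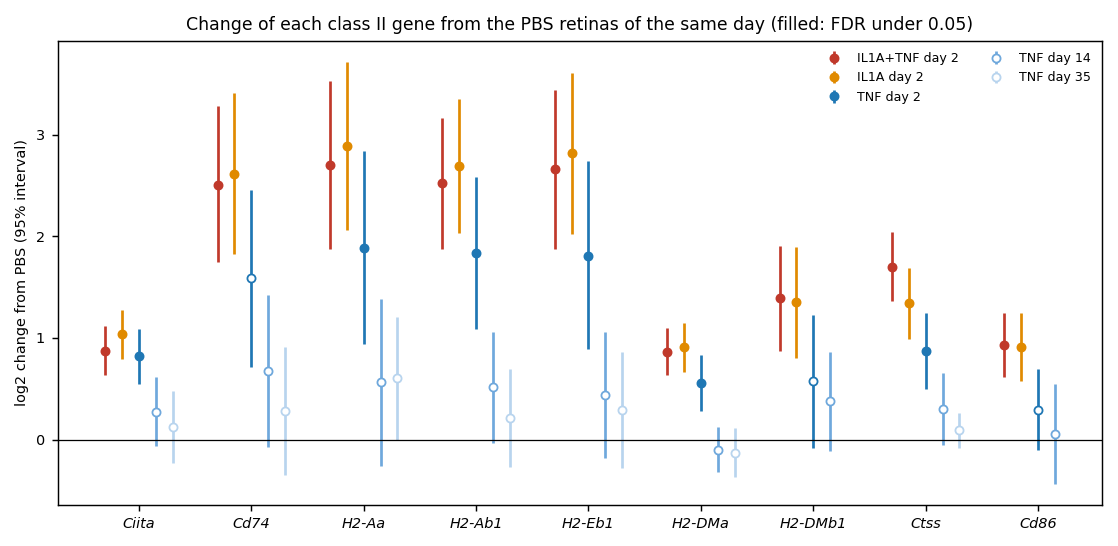
The vertical axis gives the log2 change of each gene from PBS retinas of the same day, with its 95% interval, for 5 comparisons side by side. Filled points passed an FDR of 0.05. With IL1A+TNF and IL1A all 9 points of each are filled, with TNF at day 2 there are 6, and at days 14 and 35 there are 0. H2-DMb1 and Cd86 have no fold change at day 35.

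Fellow eyes were compared within mice. Among 8 mice with PBS in the other eye, the IL1A+TNF eye had more of each gene in 8 of 8, except Cd86 in 7 of 8. In Ciita the difference within mice was from 0.507 to 1.30 on the log2 scale, and in Cd74 from 1.67 to 4.5. With IL1A the treated eye was higher in 7 of 7 mice for each gene, except H2-DMa and Cd86 in 6 of 7. With TNF it was higher in 7 of 8 mice for Ciita, Cd74, the chains, H2-DMa and Ctss, in 6 for Cd86 and in 5 for H2-DMb1. In the mouse that went against its labels the TNF eye held less Cd74 than the PBS eye by 5.89 on the log2 scale.

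No member was called between IL1A+TNF and IL1A alone (limma). At an unadjusted p under 0.05 there were 0, and edgeR and DESeq2 called 0, where 10.1% of genes were called in either direction. Intervals still allow sizeable differences. The log2 difference of Ciita was -0.16 (95% interval -0.448 to 0.125), that of Cd74 -0.11 (-0.971 to 0.761) and that of Ctss 0.36 (-0.0555 to 0.779).

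Against TNF alone, IL1A+TNF retinas had more Ctss (log2 0.83, FDR 0.00191) and Cd86 (log2 0.64, FDR 0.0176), 2 of the 9 genes, where 20% of genes were called higher. Ciita differed by 0.06 (95% interval -0.253 to 0.363). Without the mouse that went against its labels only Ctss was called (log2 0.55), where 19.1% of genes were called higher. With mouse as a fixed block no member was called (Ctss log2 0.82, FDR 0.144). Leaving out TNF replicate 4 or 5 gave 4 calls.

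For 3 of the 9 genes, the change with both cytokines was smaller than the sum of the changes with each. Log2 departures from additivity were -0.98 for Ciita (SE 0.196, FDR 0.00286), -2.01 for H2-Ab1 (FDR 0.0156) and -2.08 for H2-Aa (FDR 0.0482). These 3 were called lower, where 1.82% of genes were. All 9 estimates were negative, and edgeR and DESeq2 called 6 each. Without the mouse that went against its labels 8 were called, all but Cd86, where 1.79% of genes were called lower. With mouse as a fixed block 0 members were called (Ciita -1.13, FDR 0.429). Leaving out IL1A+TNF replicate 4 or IL1A replicate 7 gave 5 calls. H2-Aa lost its call in 44 of the 58 fits that leave out 1 retina, with FDR up to 0.0949.

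Class II chains changed more than their transactivator in the same retinas. Here the log2 level of Ciita was subtracted from that of each gene within a retina. With IL1A+TNF the log2 change of Cd74 exceeded that of Ciita by 1.70 (SE 0.323, FDR 1.7e-06), that of H2-Aa by 1.89, of H2-Ab1 by 1.71 and of H2-Eb1 by 1.83. Ctss exceeded it by 0.85 and H2-DMb1 by 0.51 (FDR 0.034). H2-DMa differed from it by 0.02 (SE 0.151) and Cd86 by 0.05 (SE 0.179), neither called. So 6 of the 8 genes were called, where 94.4% of all genes were called in either direction. The median over all genes was -0.889, and the share called higher than Ciita was not counted.

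With IL1A the same 4 genes, Cd74, H2-Aa, H2-Ab1 and H2-Eb1, changed more than Ciita by 1.66, 1.92, 1.73 and 1.86. H2-DMa, H2-DMb1, Ctss and Cd86 were not called, where 96.4% of all genes were called in either direction. With TNF the same 4 genes exceeded Ciita by 0.83, 1.13, 1.05 and 1.03. Cd86 changed less than Ciita by -0.53, where 95% of all genes were called in either direction. With that TNF and PBS pair of eyes (TNF replicate 6, PBS replicate 17) left out, the values of the 4 genes were 1.60, 1.98, 1.61 and 1.84, all 4 called. Cd86 was at -0.40 (FDR 0.045), and 96.5% of all genes were called in either direction. H2-DMb1 relative to Ciita then had 0.22 in place of -0.27 with TNF, not called either way, and Ctss with IL1A was called (0.34, FDR 0.0283, in place of 0.32, FDR 0.055).

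Between retinas of a single group, no relation of Ciita with another member passed the test. Over the 31 PBS retinas of day 2, Pearson's r between Ciita and each of the 8 genes ran from -0.132 to 0.12 and Spearman's rho from -0.147 to 0.107. The smallest adjusted p of r over the 8 relations was 0.758 (permutation test), and that of rho was 0.811. Without the 2 retinas farthest from the median of Ciita, r ran from -0.149 to 0.0452. Within the 10 IL1A+TNF retinas r ran from -0.321 to 0.478, with a smallest adjusted p of 0.586 (permutation test). Without PBS replicate 17, r over the PBS retinas ran from -0.172 to 0.0846.

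The next correlations run over the retinas of all groups, with the mean of each of the 12 groups removed. Cd74, the chains and Ctss followed one another closely and Ciita loosely. Pairs among Cd74, H2-Aa, H2-Ab1 and H2-Eb1 had r from 0.944 to 0.972, and Ctss with Cd74 had 0.844. H2-DMa and H2-DMb1 with Cd74 had 0.752 and 0.782. Cd86 was looser, and with the members other than Ciita had r from 0.437 for Cd74 to 0.504 for Ctss. Ciita with the other members had r from 0.137 for Cd86 to 0.339 for H2-Ab1, which ranked 935th of 20503 genes. Most like Ciita were Dock10 (r 0.615), Gpr18 (0.596), Tm6sf1 (0.557), Gpr183 (0.556) and Dgkh (0.528). Outside the members, Lyz2 (r 0.888), Ccr2 (0.882), Cybb (0.872), Tlr8 (0.846) and Mpeg1 (0.831) were most like Cd74. Lyz2, Cybb and Mpeg1 are genes of phagocytes and Ccr2 is a chemokine receptor of monocytes. Retinas share mice here. Without the mouse that went against its labels, pairs among Cd74 and the chains had r from 0.921 to 0.955, and Ctss with Cd74 had 0.772. Cd86 with the members other than Ciita then had r from 0.288 for Cd74 to 0.389 for Ctss. Ciita with the other members then had r from 0.052 for Cd86 to 0.254 for H2-Ab1, and Dock10 (r 0.613), Dgkh (0.61), Igsf9b (0.6), Zfhx2 (0.6) and Gpr18 (0.593) were most like Ciita. The 5 genes most like Cd74 outside the members were unchanged, with r from 0.765 to 0.825.

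**Figure D3:**
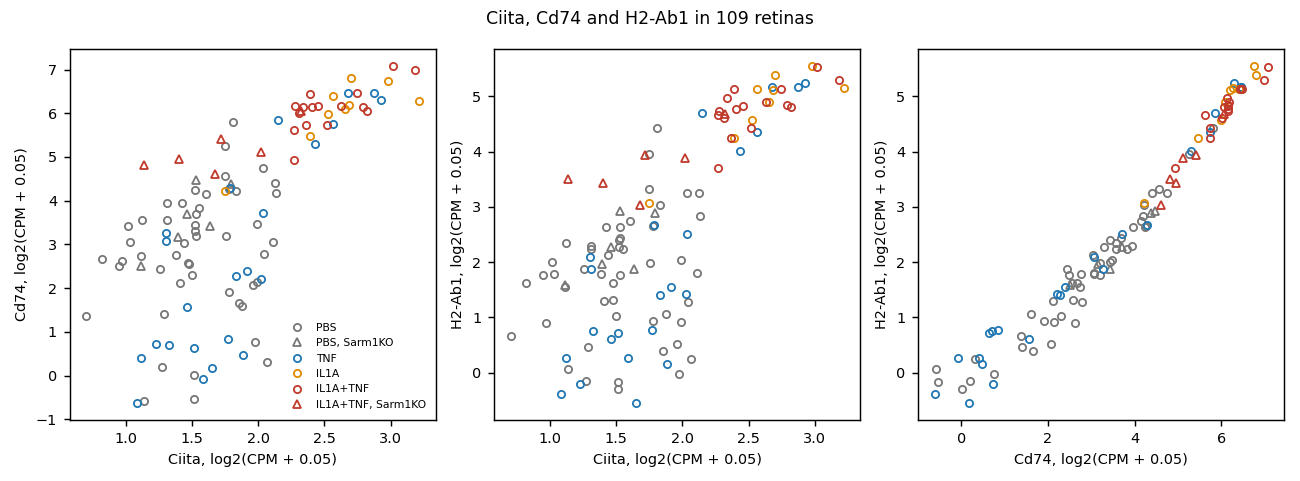
Each point is 1 retina of any group, coloured by treatment, and both axes are log2(CPM + 0.05). Cd74 against H2-Ab1 forms a narrow band (r 0.953 after group means are removed), while Ciita against Cd74 and Ciita against H2-Ab1 form wide clouds (r 0.327 and 0.339).

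Markers of other cells were read beside these genes, with the shares of all genes for comparison. With IL1A+TNF 24.9% of all genes were called higher, with IL1A 12% and with TNF 0.614%. Of 19548 genes, 4978 were called lower with IL1A+TNF, 1847 with IL1A and 8 with TNF. The summed level of 8 monocyte and macrophage markers had a median of 23.75 CPM in PBS retinas of day 2 (13.07 to 37.66), 52.24 with TNF (11.93 to 77.25), 71.66 with IL1A (26.67 to 90.8) and 73.57 with IL1A+TNF (60.01 to 104.8). The lowest TNF value was that of replicate 6. Of these 8 markers, 7 rose with IL1A+TNF, 5 with IL1A and 0 with TNF. Of 10 microglial markers, 6 rose and 3 fell with IL1A+TNF, 7 rose and 1 fell with IL1A, and 2 rose with TNF. With TNF, 3 monocyte and macrophage and 4 microglial markers rose once the mouse that went against its labels was left out. In that fit 2.16% of all genes were called higher with TNF. The summed median of microglial markers was 99.37 CPM with PBS and 196.5 CPM with IL1A+TNF.

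Dendritic cell markers summed to 14.84 CPM with PBS and 24.54 CPM with IL1A+TNF, and 3 of 7 rose with IL1A+TNF, 4 with IL1A and 2 with TNF. Neutrophil markers had summed medians of 7.879 CPM with PBS, 7.304 with TNF, 64.68 with IL1A and 68.96 with IL1A+TNF, and 4 of 4 tested rose with IL1A and with IL1A+TNF. B cell markers summed to at most 6.702 CPM in any retina. Of 4 tested 1 rose with IL1A+TNF, near the share of all genes (24.9%), and 2 with IL1A (12% of all genes). T cell markers summed to at most 2.347 CPM, and 0 of 2 tested were called with any treatment in batch 1. In WT retinas of both batches together, 2 of 4 B cell and 2 of 4 T cell markers rose with IL1A+TNF, where 27.8% of all genes did. Retinal markers were lower in 4 of 6 with IL1A+TNF and in 4 of 6 with IL1A. Pigment epithelium markers were lower in 2 of 3 with IL1A+TNF (median log2 -1.78), in 2 of 3 with IL1A (-1.37) and in 1 of 3 with TNF (-1.31). The part of these cells in the class II values was not tested.

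The other genes of the pathway were read from lists chosen for their role. The shares of all genes called are those given with the cell markers. Of 6 further class II chains listed 3 could be tested, and all 3 rose with IL1A+TNF and with IL1A: H2-DMb2 by 2.28 and 2.71 on the log2 scale, H2-Oa by 1.5 and 2.15, and H2-Ob by 1.00 and 1.44. With TNF none of the 3 was called (log2 1.19, 0.95 and 1.20), while all 3 were without the mouse that went against its labels (1.76, 1.5 and 1.37). H2-Oa and H2-Ob form H2-DO, which restrains H2-DM. They and H2-DMb2 were low, with PBS medians from 0.132 to 0.217 CPM. Among the 7 subunits of the RFX, NF-Y and CREB proteins that recruit CIITA, changes were small. With IL1A+TNF, Rfxank (log2 0.22) and Creb1 (0.33) were among 3 that rose, and Rfx5 (-0.17) and Nfyb (-0.08) fell. Without that mouse 4 rose and 1 fell.

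The list for the route from interferon gamma to Ciita holds genes that act on that route in either direction. Whether their changes between the cytokines differ from that of Ciita was not tested, nor was the part of interferon gamma in the Ciita values. With IL1A+TNF 7 of 8 rose (24.9% of all genes did), including Irf1 (log2 2.07), Irf2 (0.73) and Socs1 (2.31). With IL1A 6 of 8 rose (12% of all genes did), with Irf1 at 0.71. Without the mouse that went against its labels 5 of 8 did (12.2% of all genes). With TNF 0 of 8 were called, and Irf1 was at 0.04 (SE 0.258), with 0 of 8 also without that mouse. Irf1, a transcription factor induced by interferon, had medians of 10.25 CPM with PBS, 11.38 with TNF, 15.42 with IL1A and 54.77 with IL1A+TNF. IL1A+TNF retinas had more Irf1 than IL1A retinas (log2 1.37, FDR 0.000119) and more than TNF retinas (log2 2.03, FDR 4.55e-08), while Ciita was not called in either comparison. In all, 5 of the 8 genes were called higher against IL1A and 6 against TNF. Of all genes, 10.1% were called in either direction against IL1A and 20% higher against TNF. Ifng itself, which encodes interferon gamma, had a median of 0 CPM in each of the 4 day 2 groups of batch 1 and at most 0.07276 CPM there. Ifng, Socs1 and H2-Ob lie outside the naming rule and were chosen after their values were seen.

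**Figure D4:**
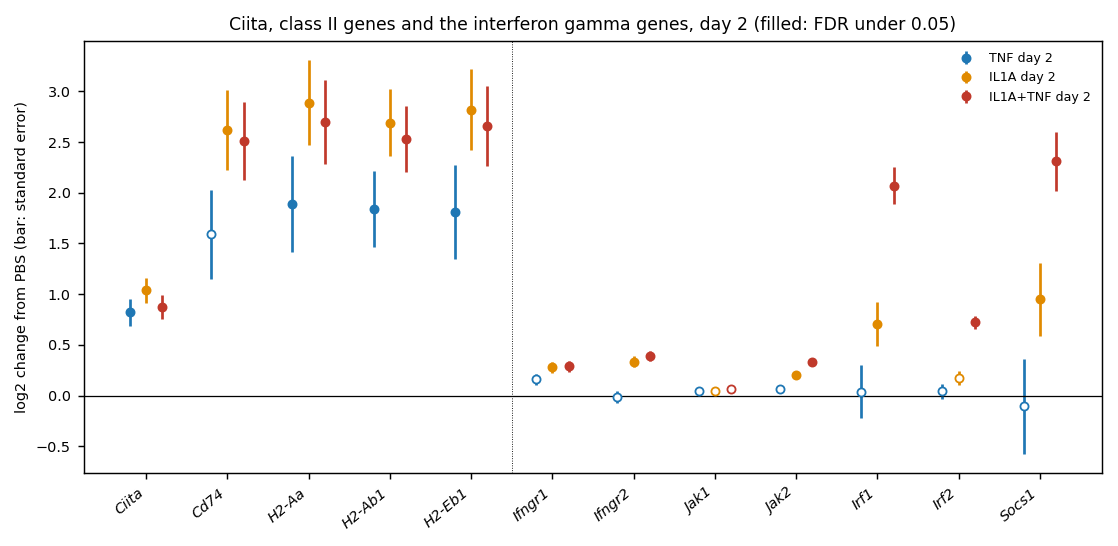
Log2 changes from PBS at day 2, with SE bars, are plotted for Ciita, class II genes and the interferon genes under IL1A+TNF, IL1A and TNF. Ciita lies at 0.88, 1.04 and 0.82, while Irf1 lies at 2.07, 0.71 and 0.04.

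Among 9 genes of antigen processing, 7 rose with IL1A+TNF, 7 with IL1A and 0 with TNF (24.9%, 12% and 0.614% of all genes). Ifi30, a reductase of disulphide bonds in engulfed protein, changed by 1.63, 1.23 and 0.61 on the log2 scale, and Ctsz, a cathepsin, by 0.80, 0.51 and 0.16. Of 6 further costimulation genes 5, 5 and 0 were called, with Cd274, a ligand of the inhibitory receptor PD-1, at 2.93, 0.95 and 0.11 and Icosl at 1.19, 1.07 and 0.15. TNF raised, once the mouse that went against its labels was left out, 2 of the antigen processing genes, Ifi30 (0.86, FDR 0.00026) and Ctsh, and 2 of the costimulation genes, Cd40 and Cd80, and IL1A raised 4 of the latter. In that fit 2.16% of all genes were called higher with TNF and 12.2% with IL1A. Ctsh, Cd40 and Cd80 were named after their values were seen. March1 and March8 encode ubiquitin ligases that remove class II molecules from the cell surface. They had log2 changes of 0.08 and 0.01 with IL1A+TNF, neither called, and March1 rose by 0.12 with IL1A.

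At days 14 and 35 after TNF no member was called against PBS. Ciita had medians of 2.55 CPM (1.88 to 4.14) in 7 PBS and 3.45 CPM (2.41 to 4.01) in 6 TNF retinas at day 14, and the groups overlapped (log2 0.27, 95% interval -0.0637 to 0.612). Cd74 went from 5.59 CPM (1.20 to 6.76) to 6.78 CPM (4.56 to 19.4), and 3 of the 6 TNF retinas lay above every PBS retina (log2 0.67, 95% interval -0.073 to 1.42). At day 35 Ciita was at 2.58 CPM (1.57 to 3.88) in 6 PBS and 2.7 CPM (2.06 to 3.64) in 9 TNF retinas (log2 0.12, 95% interval -0.23 to 0.478). Cd74 was at 1.03 CPM (0.618 to 2.54) and 1.5 CPM (0.602 to 2.92), again overlapping (log2 0.28). On each day limma called 0 of the members, at an unadjusted p under 0.05 there were 0, edgeR and DESeq2 called 0, and 0% of all genes were called by limma.

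At day 35, 2 members could not be tested because of low counts, H2-DMb1 with medians of 0.244 CPM with PBS and 0.219 CPM with TNF, and Cd86 with 0.338 and 0.174 CPM. Cd86 had a count of 0 in PBS replicate 3 of day 35, and 3 counts there, the limit that a count of 0 allows, would be 0.0849 CPM, which covers counting error only. The test of whether the TNF change at day 14 differed from that at day 2 called 0 of the 9 by limma. An unadjusted p under 0.05 was reached by 2, edgeR and DESeq2 called 0, and 0% of all genes were called. For day 35 against day 2 limma called 0, an unadjusted p under 0.05 was reached by 3, edgeR and DESeq2 called 0, and again 0% of all genes. Estimates were all negative, with Ciita at -0.56 and -0.71 and Cd74 at -0.81 (95% interval -2.75 to 1.14) and -1.26 (-4.34 to 1.81). Cd74 was at -1.67 and -2.07 without the mouse that went against its labels, and again 0% of all genes were called.

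By day 35, PBS retinas held less of 5 of the 9 genes than at day 2, and Ciita was not called. At day 14, 2 of the 9 genes were called lower than at day 2, Ctss (log2 -0.82, FDR 0.00851) and Cd86 (-1.28, FDR 0.00267), where 9.62% of genes were called lower. At day 35 there were 5, namely Cd74 (-3.26, FDR 0.0419), H2-DMa (-0.46), H2-DMb1 (-2.25), Ctss (-1.36, FDR 6.51e-05) and Cd86 (-2.14), where 16.9% of genes were called lower. All 6 PBS retinas of day 35 lay below all 31 of day 2 for Cd74, H2-Eb1, H2-DMb1, Ctss and Cd86. Median Cd74 was 10.7 CPM at day 2, 5.59 at day 14 and 1.03 at day 35, and median Ctss was 26.6, 15.6 and 10.5 CPM. Ciita differed by -0.27 between day 35 and day 2 (95% interval -0.634 to 0.0853), with medians of 3.0, 2.55 and 2.58 CPM.

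The chains had large but uncertain changes at day 35, with H2-Aa at -3.12 (FDR 0.107), H2-Ab1 at -2.16 (FDR 0.0563) and H2-Eb1 at -2.79 (FDR 0.0952). At day 14 edgeR called 7 and DESeq2 8 of the 9 genes, and at day 35 both called 8. Without the mouse that went against its labels limma called 8 at day 35, where 16.6% of genes were called lower. At day 14 limma then called H2-DMb1 (FDR 0.0352) besides, where 9.72% of genes were called lower. Leaving out PBS replicate 1, 3, 4 or 5 of day 35 gave 3. Microglial markers were lower too, 9 of 10 at day 14 and 10 of 10 at day 35, with summed medians of 57.55 and 45.18 CPM against 99.37 at day 2. So were 3 and 4 of 8 monocyte and macrophage markers and 7 and 8 of 9 antigen processing genes, against 9.62% and 16.9% of all genes. Their part in the class II values was not tested, and day of harvest and time since injection cannot be told apart. PBS retinas of day 2 included fellow eyes of 7 IL1A and 8 IL1A+TNF retinas. No retina of days 14 and 35 had IL1A, and the part of the fellow eye was not tested.

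In the Sarm1 experiment the targeted gene was read first. Sarm1 was at 37.1 to 52.9 CPM in Sarm1KO PBS retinas and at 26 to 46.5 CPM in Sarm1KO IL1A+TNF retinas, below every WT retina of the study, of which the lowest was at 76.2 CPM. Transcript remained in all Sarm1KO retinas, and these reads do not show whether it is functional. WT and Sarm1KO retinas were compared in a fit over both batches, with batch as a term, and then in batch 2 alone, since all Sarm1KO retinas were in batch 2.

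With IL1A+TNF, Sarm1KO retinas held less Ciita than WT retinas. Ciita was the only member called when the responses of the genotypes were compared in that fit, a call that was lost in batch 2 alone. Estimates for Cd74, the chains and H2-DMb1 were larger in size than that of Ciita but less precise, and were not called. Cd74, the chains, Ctss and Cd86 still rose in Sarm1KO retinas, although H2-Aa (FDR 0.0505) and H2-Eb1 (FDR 0.0679) were not called with no filter on low counts. In WT retinas of both batches all 9 genes rose, where 27.8% of genes were called higher. In Sarm1KO retinas 6 of 9 rose, where 21.3% of genes were. No member was called between PBS retinas of the genotypes (limma, 0 called, 0 at an unadjusted p under 0.05, 0 by edgeR and DESeq2, with 0.0397% of all genes called).

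Ciita was at 2.42, 2.43, 2.60, 4.33 and 3.32 CPM in the 5 WT PBS retinas of batch 2 and at 4.79, 5.95 and 9.04 CPM (lowest, median, highest) in the 6 WT IL1A+TNF retinas. In Sarm1KO retinas it was at 2.11, 2.77 and 3.41 CPM with PBS and at 2.14, 3.19 and 4.96 CPM with IL1A+TNF. WT groups did not overlap, and Sarm1KO groups did, with 2 of 6 treated retinas above every Sarm1KO PBS retina. In Sarm1KO the log2 change was 0.24 (SE 0.203, 95% interval -0.164 to 0.643, FDR 0.357), against 0.96 (SE 0.108) in WT.

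Cd74 was at 15.4, 11.8, 4.27, 18.1 and 9.08 CPM in WT PBS retinas of batch 2 and at 53.3, 80.0 and 134.8 CPM with IL1A+TNF. In Sarm1KO retinas it was at 5.66, 11.9 and 22.1 CPM with PBS and at 24.3, 32.9 and 66.8 CPM with IL1A+TNF. Neither genotype's groups overlapped. Log2 changes were 2.64 in WT and 1.54 in Sarm1KO (SE 0.553, FDR 0.0191). The chains rose by 2.81, 2.61 and 2.76 in WT (H2-Aa, H2-Ab1, H2-Eb1) and by 1.56, 1.5 and 1.43 in Sarm1KO.

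H2-DMa rose by 0.91 in WT and had a log2 change of 0.36 in Sarm1KO (FDR 0.0982), from a median of 3.19 CPM (2.7 to 5.03) to 4.89 CPM (3.05 to 6.26). H2-DMb1 rose by 1.41 in WT and had 0.49 in Sarm1KO (FDR 0.276), from 1.96 CPM (1.21 to 2.59) to 2.56 CPM (2.22 to 3.16). Both overlapped between Sarm1KO groups. Ctss rose by 1.78 and 1.16 and did not overlap in either genotype. Its levels in WT were 35.8, 26.5, 21.9, 28.8 and 24.4 CPM with PBS and 82.4, 111.1 and 138.6 CPM with IL1A+TNF, and in Sarm1KO 21.7, 28.3 and 45.1 CPM and 48.7, 68.5 and 74.9 CPM. Cd86 rose by 1.12 and 0.95. These WT changes are from the fit over both batches. In batch 2 alone Cd86 rose by 1.55 in WT and 0.94 in Sarm1KO, and Cd74 by 2.99 and 1.51. Ciita then rose by 1.14 in WT and had 0.25 in Sarm1KO (FDR 0.398). Within mice the treated eye was higher in 5 of 5 WT mice for each gene, and in 6 of 6 Sarm1KO mice for Cd74, the chains, Ctss and Cd86, but in 4 for Ciita and H2-DMa and 3 for H2-DMb1.

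**Figure D5:**
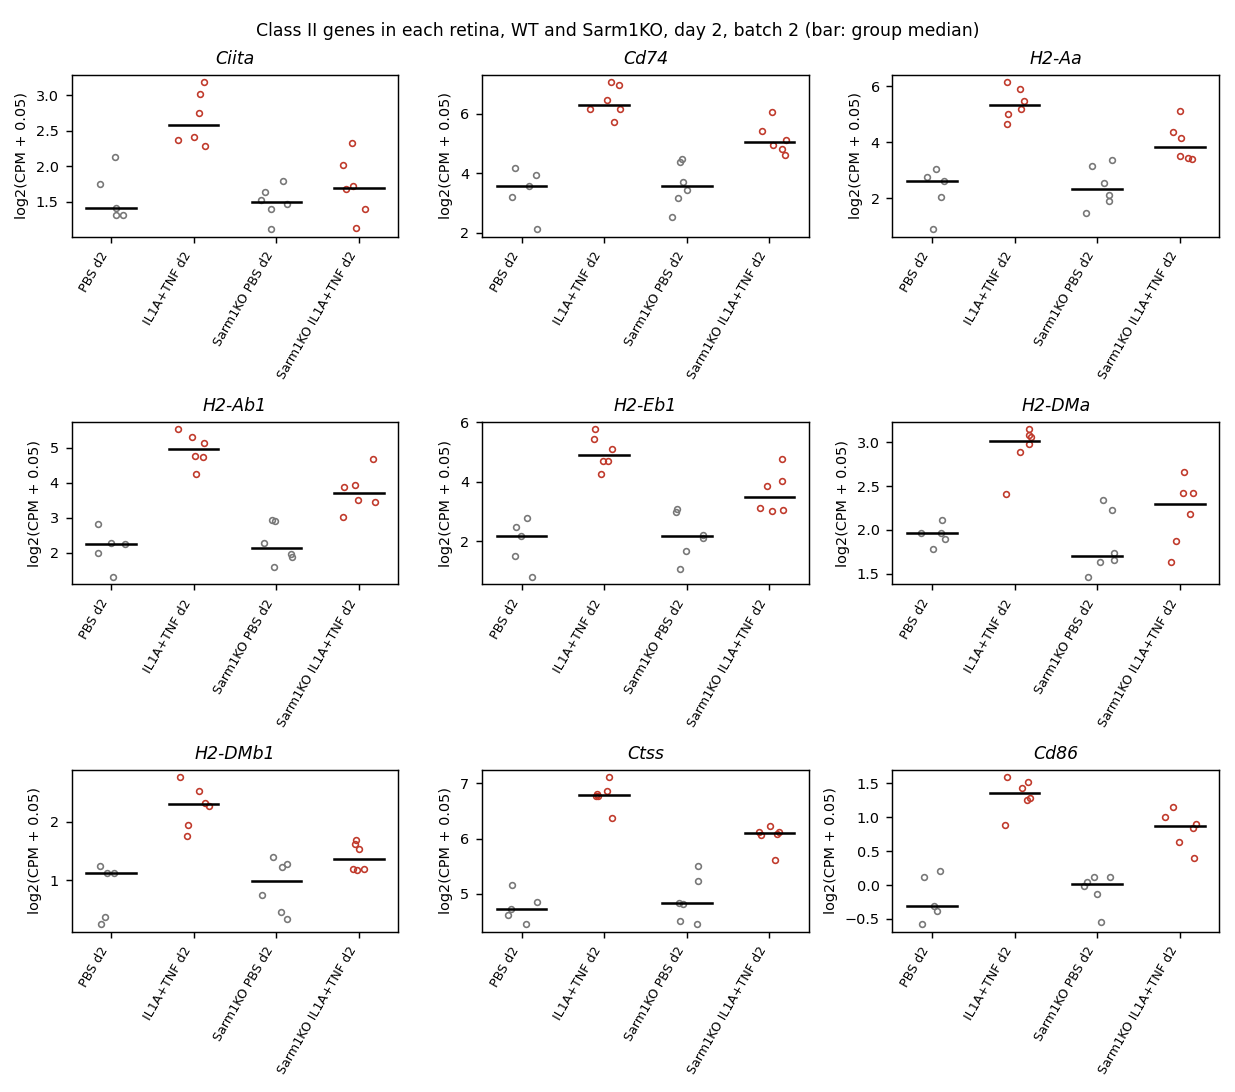
Each panel plots 1 gene in every retina of batch 2 as log2(CPM + 0.05), by genotype and treatment, with a bar at the group median. All 6 Sarm1KO IL1A+TNF retinas lie below all 6 WT IL1A+TNF retinas for H2-DMb1 and Ctss, 5 of 6 do so for Ciita, Cd74 and the chains, and Sarm1KO groups overlap for Ciita.

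Between IL1A+TNF retinas, Sarm1KO was lower than WT in 6 of the 9 genes, where 10.8% of genes were called lower. The log2 differences were -0.90 for Ciita (SE 0.182, FDR 0.00104), -1.36 for H2-Aa, -1.18 for H2-Ab1, -1.33 for H2-Eb1, -0.70 for H2-DMa and -0.65 for Ctss. Cd74 (-1.16, FDR 0.0721), H2-DMb1 (-0.87, FDR 0.0503) and Cd86 (-0.37, FDR 0.213) were not called. In batch 2 alone 6 were called as well, with Ciita at -0.95 (FDR 0.0262), Cd74 at -1.25 (FDR 0.0471) and H2-DMb1 at -0.88 (FDR 0.0471) among them and H2-Aa (-1.40, FDR 0.0515) and H2-Eb1 (-1.37, FDR 0.0564) not. edgeR called 2 and DESeq2 4. Without the mouse that went against its labels 8 were called, where 11% of genes were called lower. Leaving out Sarm1KO IL1A+TNF replicate 4 or 5 gave 2 calls, and replicate 1 of that group or WT IL1A+TNF replicate 5 of batch 2 gave 3. For the rise in Sarm1KO retinas, leaving out Sarm1KO PBS replicate 3 or Sarm1KO IL1A+TNF replicate 6 gave 3 calls. H2-Aa lost that call in 6 and H2-Eb1 in 7 of 81 fits that leave out 1 retina.

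The test of the difference between the responses called Ciita alone, at -0.72 (SE 0.23, FDR 0.037), where 7.24% of genes were called lower. That call did not hold throughout. In batch 2 alone Ciita was at -0.90 (FDR 0.814) and 0 members were called, with mouse as a fixed block it was at -0.77 (FDR 0.112), and edgeR and DESeq2 called 0 members. It was also lost when Sarm1KO PBS replicate 1, 2, 4 or 5 or Sarm1KO IL1A+TNF replicate 4 or 5 was left out. Leaving out WT IL1A+TNF replicate 3 of batch 2 or Sarm1KO IL1A+TNF replicate 3 or 6 gave 2 calls. Without the mouse that went against its labels, H2-DMa (-0.56) and H2-DMb1 (-0.92) were called beside Ciita, where 7.29% of genes were called lower. With all retinas, the 9 estimates were all negative, and 6 members had an unadjusted p under 0.05 (limma), as did 4596 of 20154 genes. Uncalled members had estimates of -1.10 for Cd74 (SE 0.634, FDR 0.297), -1.25 for H2-Aa, -1.11 for H2-Ab1 and -1.33 for H2-Eb1 (FDR 0.217). A call for Ciita alone therefore does not show that its response differed more than theirs.

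In the list for the route from interferon gamma to Ciita, no gene was called beside Ciita here. Between IL1A+TNF retinas of the genotypes 0 of 8 were called by limma, with Irf1 at -0.11 (SE 0.292), and 0 of 8 differed in their response. Of the recruiting subunits Rfx5 was lower by -0.23 and Nfyb higher by 0.16. In antigen processing Ifi30 (-0.61) and Ctsz (-0.30) were lower. Some cell markers were lower as well, where 10.8% of all genes were called lower. They were 5 of 10 microglial, 2 of 7 dendritic cell and 1 of 8 monocyte and macrophage markers (2 without the mouse that went against its labels). The count of 1 of 8 was near the share of all genes. Also lower were 2 of 6 retinal, 1 of 3 pigment epithelium and 1 of 4 tested B cell markers. Fewer differed in their response, where 7.24% of all genes were called lower. These were 1 of 10 microglial, 1 of 7 dendritic cell, 1 of 6 retinal and 1 of 8 monocyte and macrophage markers (0 of the last without that mouse). Summed marker medians in IL1A+TNF retinas of batch 2 were 241.8 CPM in WT and 178.8 CPM in Sarm1KO for microglia. They were 28.72 and 19.72 CPM for dendritic cells, and 98.39 and 71.86 CPM for monocytes and macrophages. Neutrophil markers were at 107.3 and 117.7 CPM, and none was called. Their part in the class II values was not tested.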

How the data were processed

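Retinal RNA was sequenced by the submitters, and per their processing notes read pairs were aligned to mm10 with STAR 2.7.9a and summed per gene with featureCounts of Subread 2.0.1. The deposited values are raw counts per gene, which the authors did not normalise in this table. Strand setting and annotation release of the counting are not given in the sources used here. All per-sample columns were used, and 0 were left out. Of 37315 gene identifiers, 35533 matched GENCODE M21.

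Counts were scaled with TMM factors and tested with limma 3.58.1 (voom weights, mouse as a random block) in R 4.3.3, after a filter at a minimum count of 10 and a minimum total of 15. FDR is the Benjamini-Hochberg adjusted p over all genes tested, with a threshold of 0.05. Levels are CPM, counts divided by TMM-scaled library sizes, and a prior count of 2 was added before logs were correlated. Fits were made for day 2, day 14 and day 35 of batch 1, over all days, and over both batches with batch as a term. Scripts were tested on simulated data. edgeR 4.0.16 and DESeq2 1.42.0, other filters, other blocks, each retina left out in turn and batch 2 alone were tried as alternatives.

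Mouse identifiers in the labels pair the eyes. Deviations of the 45 pairs of eyes from their group means had a median r of 0.0827 (-0.265 to 0.339), 19 of them above 0.1, against -0.00984 between mice. The correlation within mice estimated by limma was 0.0515 at day 2, 0.284 at day 14, 0.0794 at day 35, 0.0884 over all days and 0.00525 in the genotype fit. Each retina was used as a replicate, also where 2 PBS retinas of day 14 came from 1 mouse, and p-values measure the spread between retinas.

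Members and lists were chosen with earlier results of these data known. Every member is named. From each other list, the 2 genes with the smallest FDR for IL1A+TNF against PBS are named, with those that moved against the majority of their list, and the 5 genes most like Ciita and Cd74. Total counts of 30014757 to 79064488 per retina set the precision. Some genes of the lists are not reported here by name.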

Additional observations from a re-analysis of the deposited data

Results flagged for a closer look

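Of 99 combinations of gene and group with 4 to 10 retinas, 6 held a retina that stood apart from the rest of its group, and chance alone gives about 1 in 20. Ciita was at 4.14 CPM in WT PBS replicate 5 of day 14, where the next retina was at 2.73 CPM. Cd74 was at 19.4 CPM in WT TNF replicate 4 of day 14 (next 9.59 CPM) and at 2.92 CPM in WT TNF replicate 2 of day 35 (next 1.74 CPM). H2-Ab1 was at 1.53 CPM in WT PBS replicate 1 of day 35 (next 0.995 CPM). H2-DMa was at 7.55 CPM in WT IL1A+TNF replicate 4 of day 2, batch 1 (next 6.49 CPM). Ctss was lowest in Sarm1KO IL1A+TNF replicate 1, at 48.7 CPM (next 66.6 CPM).

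The response of Ciita to IL1A+TNF differed between genotypes by -0.716 on the log2 scale (limma, FDR 0.037), with the limits given beside that result.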

How the results depend on the processing

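Counts of members called by limma moved by over 1.5 times under these settings. With TNF at day 2, no filter on low counts gave 3. For IL1A+TNF against TNF, mouse as a fixed replicate block gave 0. For the departure from additivity the fixed replicate block gave 0, and edgeR and DESeq2 gave 6 each. For PBS, edgeR gave 7 and DESeq2 8 at day 14, and both gave 8 at day 35. Between IL1A+TNF retinas of the genotypes edgeR gave 2. For genotype by treatment the fixed replicate block, edgeR, DESeq2 and batch 2 alone each gave 0. Leaving out both retinas of the mouse that went against its labels, chosen after seeing the data, gave 1 for IL1A+TNF against TNF, 8 for additivity, 8 for PBS at day 35 and 3 for genotype by treatment. The cause of these differences was not tested.

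With mouse as a fixed replicate block, TNF gave 5 calls. That block could not be estimated for comparisons of PBS between days or of the genotypes. With no replicate block, PBS at day 35 gave 6 and Sarm1KO against WT with IL1A+TNF 7.

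Leaving out 1 retina at a time gave 1 to 8 calls for TNF, 1 to 4 for IL1A+TNF against TNF, 2 to 8 for additivity, 2 to 3 for PBS at day 14, 3 to 8 for PBS at day 35, 3 to 7 for IL1A+TNF in Sarm1KO, 2 to 8 between genotypes with IL1A+TNF and 0 to 3 for genotype by treatment. Under all other settings, 21 of 1404 member values changed sign, 0 of them called in either fit, and the largest of these was 0.268 in size. These settings include batch 2 alone, that mouse left out, and the fixed replicate block, which uses only mice with both eyes.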
